A study of Mus musculus with 24 samples.

Results

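The genes described here set the first gate of the cell division cycle. They are the D-type cyclins Ccnd1, Ccnd2 and Ccnd3, their partner kinases Cdk4 and Cdk6, the inhibitors Cdkn1b, Cdkn1c and Cdkn2c, and the retinoblastoma gene Rb1. The set was defined by name as these 9 rows of the deposited raw count table, which holds 47480 rows. All 9 were in the table and all 9 passed the filter on low counts, which left 14772 genes tested.

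D-type cyclins are short-lived proteins whose genes respond to growth factors and other outside signals. Bound to Cdk4 or Cdk6, they phosphorylate the retinoblastoma protein, which then releases E2F transcription factors, and these switch on genes for DNA replication. Cdkn2c belongs to the INK4 family, which keeps Cdk4 and Cdk6 from pairing with a cyclin, whereas Cdkn1b and Cdkn1c belong to the Cip/Kip family, which binds cyclin and kinase complexes.

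The cells were wild-type mouse embryonic fibroblasts (MEFs), connective tissue cells grown from embryos. Poly(A) RNA was sequenced in 24 libraries, 3 in each of 8 groups. The groups cross a control siRNA (siCTRL) or an siRNA against the ubiquitin ligase gene Cop1 (siCop1) with the solvent DMSO or KL001, a small molecule known to stabilise cryptochrome clock proteins, and with or without Dexa, a name the labels do not spell out. The groups were therefore siCTRL DMSO, siCTRL DMSO Dexa, siCTRL KL001, siCTRL KL001 Dexa, siCop1 DMSO, siCop1 DMSO Dexa, siCop1 KL001 and siCop1 KL001 Dexa. The labels give no dose and no time, and they do not say whether the 3 libraries of a group came from separate cultures, so p-values measure only the spread between these libraries.

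The libraries held 21409988 to 27875023 counts (median 25337292). Cop1, listed under its older symbol Rfwd2, read 25.0 to 29.7 CPM (counts scaled by library size after TMM normalization) in the siCTRL libraries and 4.33 to 5.79 CPM in the siCop1 libraries. Fkbp5, a gene known to be induced through the glucocorticoid receptor, was higher with Dexa by 3.96 on the log2 scale, and the cryptochrome gene Cry1 was lower with KL001 (log2 change −1.93). Fibroblast markers summed to 41082 to 58363 CPM, with 10 of 10 tested. Marker lists of other cell types summed to at most 97.8 CPM (heart muscle), 80.1 CPM (squamous epithelium), 19.5 CPM (simple or airway epithelium), 15.2 CPM (macrophage and blood) and 2.81 CPM (endothelium).

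Promoter sequence was available for 5 of the 9 genes, from RefSeq on GRCm38.p6. Searched on both strands were the E-box CACGTG, which clock activators and Myc bind, the AP-1 motif TGACTCA, the CRE TGACGTCA, the glucocorticoid response element (AGAACA and TGTTCT with any 3 bases between them) and its half-site AGAACA, which every full element also holds. The window before Cdk4 is shown because it held 4 copies of the E-box, and the window before Ccnd3 because that gene rose with Dexa. Each runs 5′ to 3′ up to the annotated start of the gene, with E-boxes in capitals.
Cdk4, chr10:127063285-127063533, plus strand, 249 bases: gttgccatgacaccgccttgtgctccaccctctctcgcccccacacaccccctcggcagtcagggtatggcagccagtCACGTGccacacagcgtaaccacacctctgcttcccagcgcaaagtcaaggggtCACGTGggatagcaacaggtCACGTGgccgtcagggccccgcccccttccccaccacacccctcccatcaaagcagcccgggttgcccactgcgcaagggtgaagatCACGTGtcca
Ccnd3, chr17:47504801-47505050, plus strand, 250 bases: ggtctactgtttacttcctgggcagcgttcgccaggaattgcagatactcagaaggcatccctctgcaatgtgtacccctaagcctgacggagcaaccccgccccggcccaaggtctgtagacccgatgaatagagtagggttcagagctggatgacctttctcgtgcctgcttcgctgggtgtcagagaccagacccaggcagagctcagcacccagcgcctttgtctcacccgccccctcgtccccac
Of 32851 RefSeq promoter windows of 250 bases, 6.02% held at least 1 E-box and 20 windows (0.0609%) held 3 or more. Ccnd3 had 2 windows, and the one shown held none of the motifs searched. The second (chr17:47593217-47593466) lies before a RefSeq start within the gene and also held none. Half-sites occurred in 16.1% of all windows and the full glucocorticoid response element in 3 windows (0.00913%), none of them in a window of this set. For Cdk6 and Cdkn2c the windows lie before RefSeq starts within the gene as annotated by GENCODE. The window of Cdk6 held 1 E-box and 1 half-site, 1 of the 2 windows of Cdkn2c held 1 half-site, and the window before Cdkn1b held none of the motifs. These matches describe letters and not bound sites.

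The genes differed widely in level. Per kilobase of the longest coding transcript, Cdk4 was the most abundant at a median of 298 CPM per kb (range 273 to 329 over the 24 libraries). The cyclins followed, with Ccnd2 at 111 (82.2 to 160.3), Ccnd1 at 108 (96.6 to 136) and Ccnd3 at 87.5 (71.7 to 109) CPM per kb. The ranges of the 3 cyclins overlapped, and on this scale the order of Ccnd1 and Ccnd2 differed with Dexa. Ccnd2 was above Ccnd1 in every library without Dexa (ratio 1.03 to 1.30) and below it in every library with Dexa (0.806 to 0.995). That order depends on the lengths used, 6330 bases for Ccnd2 and 3740 for Ccnd1, whereas all exons together span 9409 and 4709 bases. In CPM not divided by length, Ccnd2 (520 to 1015) was above Ccnd1 (361 to 509) in all 24 libraries. Among the inhibitors, Cdkn1b read 34.0 CPM per kb (31.1 to 36.1) and Cdkn2c 28.8 (25.4 to 32.1). These ranges overlapped between libraries, but Cdkn1b was above Cdkn2c within each library. Cdk6 stood at 5.38 CPM per kb and Rb1 at 3.43 CPM per kb. Cdkn1c was the scarcest at 0.799 CPM per kb, from 23 to 53 counts a library, so that its values carried the widest counting error.

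**Figure D1:**
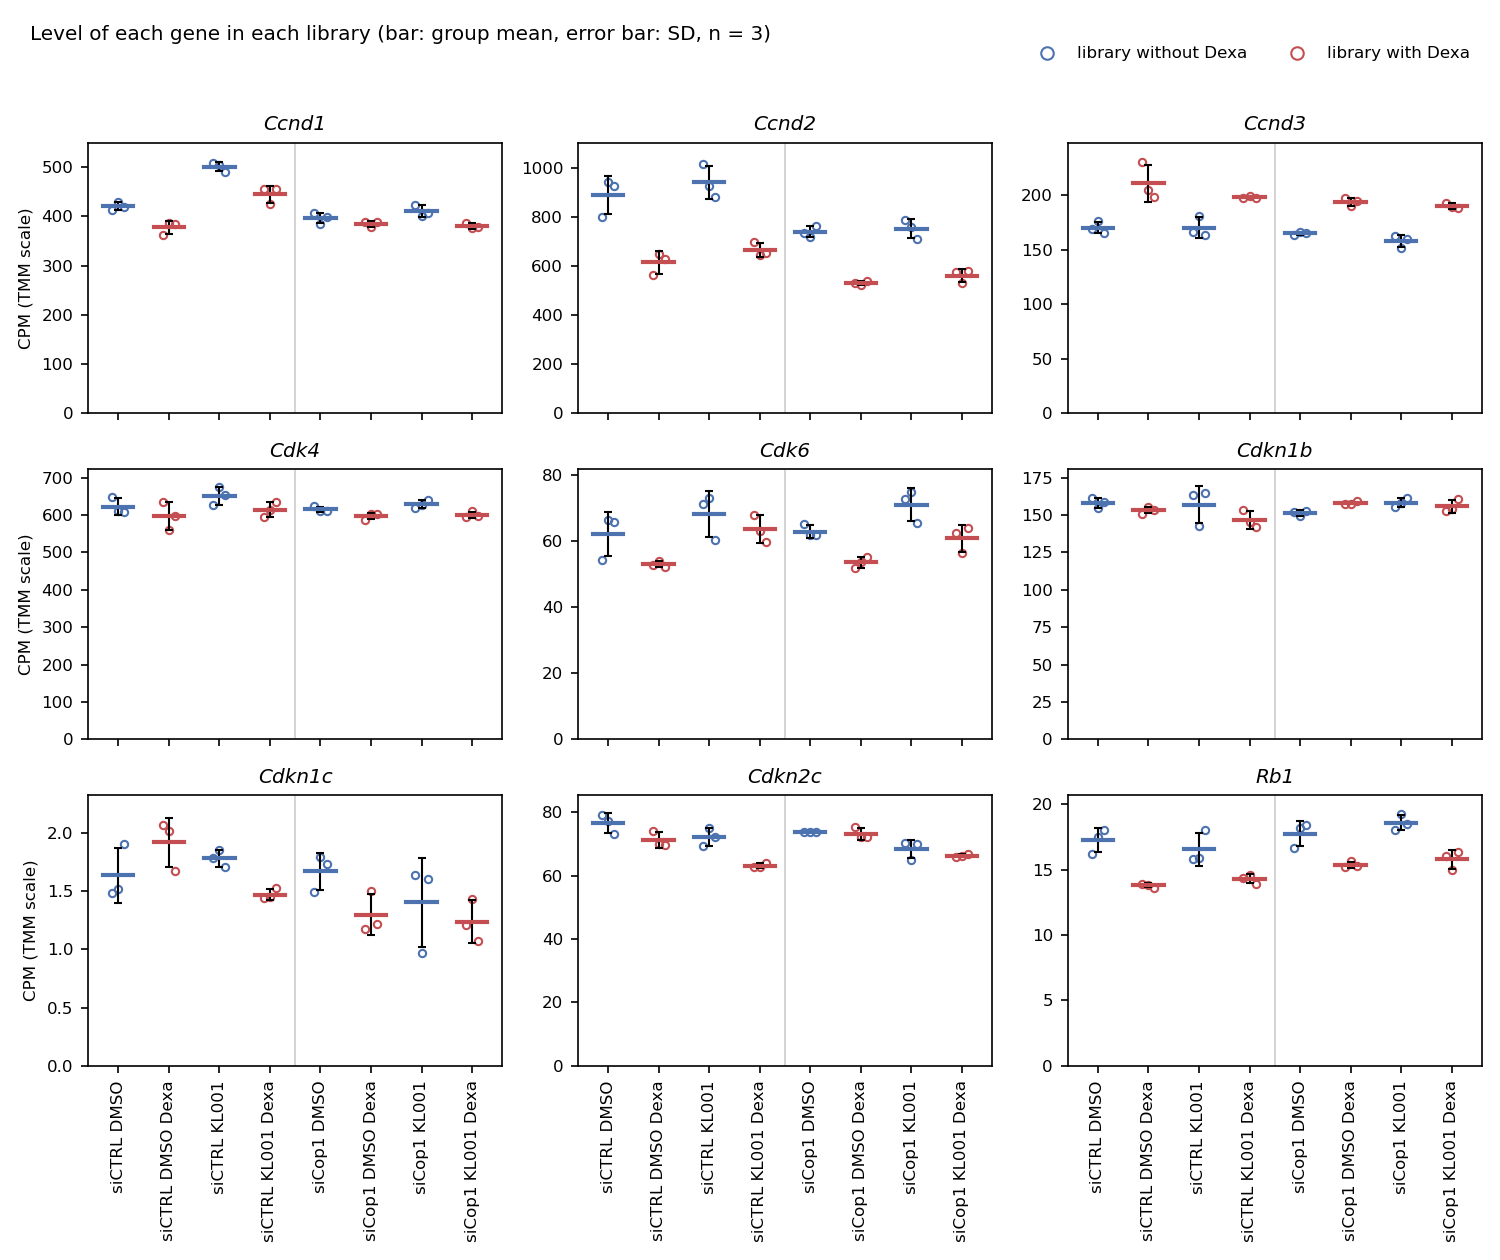
CPM (TMM scale, y axis from 0) of each of the 9 genes in each of the 24 libraries, by group (x axis); points are libraries, the bar is the group mean and the error bar the SD (n = 3). Ccnd2 is lower and Ccnd3 higher in every group with Dexa than in the group without it, Ccnd1 is highest in siCTRL KL001, and Cdkn1b stays between 142 and 165 CPM.

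Across the 8 groups, Ccnd2 had the widest range of means of the 9 genes, 1.78-fold between siCop1 DMSO Dexa and siCTRL KL001. Cdkn1b and Cdk4 moved least, by 1.08-fold and 1.09-fold between their lowest and highest group means. Ccnd1 lies on chromosome 7 (144929931 to 144939925, minus strand), Ccnd2 on chromosome 6 (127125162 to 127152193, minus strand) and Ccnd3 on chromosome 17 (47505051 to 47599691, plus strand) of GRCm38. Cdk4 lies on chromosome 10 (127063534 to 127067920, plus strand), Cdk6 on chromosome 5 (3341485 to 3531008, plus strand) and Rb1 on chromosome 14 (73183673 to 73325822, minus strand). The inhibitors lie on chromosomes 6 (Cdkn1b, 134920401 to 134925513, plus strand), 7 (Cdkn1c, 143458339 to 143461050, minus strand) and 4 (Cdkn2c, 109660876 to 109667189, minus strand). Exons of other genes on the opposite strand cover 23.4% of the exon bases of Ccnd1 (Oraov1, also named LTO1), 19.7% of Cdk4 (Tspan31), 30.7% of Cdkn1c and 14.9% of Rb1. The kit keeps strand, but the strand setting of the counting is not given in the sources used here. Oraov1 read 22.01 to 29.0 CPM, far below Ccnd1 at 361 to 509 CPM, and Tspan31 read 151 to 168 CPM beside Cdk4 at 560.6 to 675 CPM. Of the transcript's windows of 50 bases, 143 of 2064 in Ccnd3 and 94 of 11476 in Cdk6 recur elsewhere on the same strand, and reads from those stretches cannot be tied to 1 gene.

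Dexa moved the D-type cyclins in different directions. Ccnd2 fell and Ccnd3 rose in all 4 settings, Ccnd1 fell by less, and Rb1, Cdk6, Cdkn2c and Cdk4 were lower on average. Averaged over the 4 settings, 6 of the 9 genes were lower, 1 was higher and 2 did not pass the threshold (adjusted p under 0.05), beside 47.1% of all genes that changed. In single settings 6 of 9 changed in siCTRL DMSO (26.8% of all genes), 5 in siCTRL KL001 (26.8%), 4 in siCop1 DMSO (23.7%) and 5 in siCop1 KL001 (24.5%). The libraries of the compared groups did not overlap for 5, 6, 6 and 6 of the 9 genes in that order, beside 36.0%, 34.9%, 41.7% and 38.5% of all genes. The median log2 change of the 9 genes on average was −0.12, beside −0.0019 over all genes. In bulk RNA, fewer cells that express a gene and less RNA per cell cannot be told apart.

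Ccnd2, one of the 3 cyclins that partner Cdk4 and Cdk6, showed the largest fall on average among the 9 genes. In siCTRL DMSO the libraries read 801, 942 and 925 CPM, and with Dexa 563, 650 and 628 CPM. In siCop1 DMSO they read 735, 719 and 763 CPM, and with Dexa 529, 520 and 540 CPM. Every library with Dexa was below every library without it of the same setting. Under KL001 the values were 1015, 924 and 882 CPM against 696, 644 and 654 CPM in siCTRL cells. In siCop1 cells under KL001 they were 787, 758 and 709 CPM against 574, 529 and 578 CPM. The fall was 31.0% in siCTRL DMSO (log2 change −0.53, SE 0.064, adjusted p = 1.47e-06) and 25.4% in siCop1 KL001 (−0.42, SE 0.064, adjusted p = 3.45e-05), with the other settings between them. On average Ccnd2 fell by 28.5% (log2 change −0.48, SE 0.032, adjusted p = 6.98e-11).

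Ccnd3 moved the other way. Its libraries read 169, 176 and 166 CPM in siCTRL DMSO and 230.5, 205 and 198 CPM with Dexa. In siCop1 DMSO they read 164, 166 and 165 CPM, and 198, 190 and 195 CPM with Dexa. Under KL001 the groups averaged 170 ± 9.52 (SD, n = 3) against 199 ± 1.04 CPM in siCTRL cells and 158 ± 5.89 against 190 ± 2.42 CPM in siCop1 cells. No library with Dexa fell within the range of its untreated group. The rise was 0.31 on the log2 scale in siCTRL DMSO, 0.22 in siCTRL KL001, 0.23 in siCop1 DMSO and 0.27 in siCop1 KL001, all past the threshold. On average Ccnd3 rose by 19.6% (log2 change 0.26, SE 0.021, adjusted p = 1.38e-11). The tests of a difference between siRNAs in DMSO did not pass the threshold, at 0.05 (SE 0.091, adjusted p = 0.957) for Ccnd2 and −0.08 (SE 0.060, adjusted p = 0.875) for Ccnd3.

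Ccnd1, the cyclin most studied as an oncogene, fell with Dexa in 3 of 4 settings. The change was −0.16 in siCTRL DMSO (adjusted p = 0.000325), −0.17 in siCTRL KL001 (9.2e-05) and −0.11 in siCop1 KL001 (0.0114), and −0.04 (SE 0.032, adjusted p = 0.365) in siCop1 DMSO. The call in siCop1 KL001 was lost without siCop1 KL001 replicate 1 or siCop1 KL001 Dexa replicate 2, with an adjusted p of up to 0.0942. The siCop1-by-Dexa difference in DMSO was 0.11 (SE 0.045, adjusted p = 0.519). The average change of Ccnd1 was −0.12 (SE 0.016, adjusted p = 2.28e-07).

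The make-up of the D-type cyclin mRNA differed with Dexa. Each cyclin's share was taken from the summed CPM per kb of the 3 cyclins in each library and carries no test. The size of the shares and ratios depends on the transcript lengths used. For Ccnd3 the longest coding transcript has 2113 bases, while all its exons span 8775 bases. The direction in which a ratio of 2 cyclins changed does not depend on these lengths. In siCTRL DMSO, Ccnd2 held 42.1% ± 1.89 (SD, n = 3) and Ccnd3 24.2% ± 0.985, while with Dexa they held 32.5% ± 2.05 and 33.6% ± 2.99. In siCop1 DMSO, Ccnd2 went from 38.8% ± 0.613 to 30.1% ± 0.284 and Ccnd3 from 26.0% ± 0.581 to 33.0% ± 0.263. The share of Ccnd1 stayed within 32.8% to 38.2% in all 24 libraries. The ratio of Ccnd2 to Ccnd3 was 1.74 ± 0.146 in siCTRL DMSO and 0.977 ± 0.140 with Dexa. It went from 1.85 to 1.12 in siCTRL KL001, from 1.49 to 0.911 in siCop1 DMSO and from 1.59 to 0.983 in siCop1 KL001. In each of the 4 settings the highest ratio with Dexa was below the lowest without it. The summed level of the 3 cyclins went from 334 ± 15.2 to 298 ± 4.39 CPM per kb in siCTRL DMSO and from 301 ± 5.25 to 278 ± 4.54 in siCop1 DMSO.

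**Figure D2:**
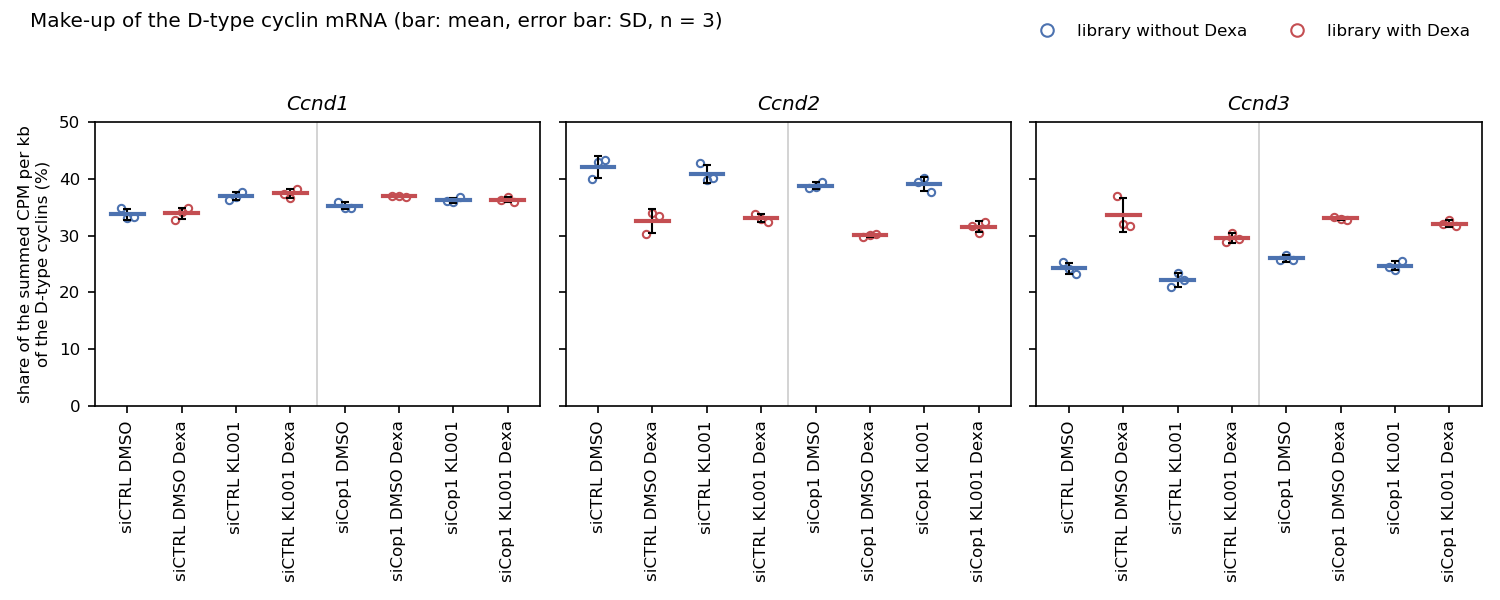
Share (y axis, percent, from 0) of each D-type cyclin in the summed CPM per kb of Ccnd1, Ccnd2 and Ccnd3, per library, by group (x axis); bars are means and error bars SD (n = 3). With Dexa the Ccnd2 share group means lie at 30.1% to 33.0%, against 38.8% to 42.1% without it, and the Ccnd3 means at 29.6% to 33.6%, against 22.2% to 26.0%, while Ccnd1 lies between 33.7% and 37.4%.

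Of the kinases, Cdk6 was lower with Dexa, with log2 changes of −0.23 in siCTRL DMSO (adjusted p = 0.0318), −0.23 in siCop1 DMSO (0.0306) and −0.22 in siCop1 KL001 (0.0338), while siCTRL KL001 gave −0.10 (SE 0.075, adjusted p = 0.395). In siCTRL DMSO its libraries read 54.4, 66.3 and 65.6 CPM, and with Dexa 52.7, 54.0 and 52.1 CPM. Replicate 1 of siCTRL DMSO lies close to the Dexa libraries, and the groups still did not overlap. The average change of Cdk6 was −0.20 (SE 0.038, adjusted p = 0.000181). Each single-setting call was lost without any 1 library other than siCTRL DMSO replicate 1 in the first setting, siCop1 DMSO Dexa replicate 3 in the second and the replicates 3 of both groups in the last, with an adjusted p of up to 0.174, 0.111 and 0.176. The call in siCTRL DMSO was also lost once trends with transcript length and GC content were removed (−0.15, adjusted p = 0.101). Cdk4, the other kinase, fell by 4.28% on average (log2 change −0.06, SE 0.018, adjusted p = 0.00417). It passed the threshold in no single setting as fitted, with log2 changes of −0.09 to −0.04. With length and GC trends removed it passed in all 4 (−0.10 to −0.07, adjusted p up to 0.0309), and it passed in siCTRL KL001 without siCTRL KL001 replicate 1 (−0.11, adjusted p = 0.0255).

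Rb1, the substrate of these kinases, was lower with Dexa in all 4 settings. Its libraries read 16.2, 17.5 and 18.0 CPM in siCTRL DMSO and 13.9, 13.9 and 13.6 CPM with Dexa. In siCop1 DMSO they read 16.7, 18.2 and 18.4 CPM, and 15.2, 15.7 and 15.3 CPM with Dexa. Neither pair of groups overlapped. The log2 changes were −0.32 (SE 0.061) in siCTRL DMSO, −0.21 in siCTRL KL001, −0.21 in siCop1 DMSO and −0.24 in siCop1 KL001, with an average of −0.24 (SE 0.030, adjusted p = 5.35e-08). The call was lost in siCTRL KL001 without siCTRL KL001 replicate 3 or siCTRL KL001 Dexa replicate 3 (adjusted p up to 0.101) or with the compared groups alone (0.0572), and in siCop1 DMSO without siCop1 DMSO replicate 3 (0.0542). Lpar6 and Rcbtb2, on the other strand at this locus, changed by −0.15 and −0.12 on average, and their part in the Rb1 value was not tested.

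Among the inhibitors, Cdkn2c was lower with Dexa on average (log2 change −0.09, SE 0.019, adjusted p = 0.000361). It changed by −0.10 in siCTRL DMSO (76.5 ± 3.16 to 71.3 ± 2.47 CPM, SD, n = 3) and by −0.19 in siCTRL KL001 (72.2 ± 2.80 to 63.2 ± 0.690 CPM). In the siCop1 groups its log2 changes were −0.01 and −0.04 (SE 0.038 and 0.039), and the siCop1-by-Dexa terms of 0.09 and 0.15 did not pass the threshold (adjusted p = 0.758 and 0.417). The call in siCTRL DMSO (adjusted p = 0.0451) was lost with the replicate number as a block (0.0509), in DESeq2 (0.0728), with the compared groups alone (0.166) and with no filter (0.187), and without replicate 1 or 2 of siCTRL DMSO or replicate 2 or 3 of siCTRL DMSO Dexa (up to 0.239). Cdkn1b passed the threshold in no comparison as fitted, with log2 changes between −0.10 and 0.08 over the 12 single comparisons. With Dexa in siCTRL KL001 its change was −0.10 (adjusted p = 0.0759), and it passed without siCTRL KL001 replicate 2 (−0.16, 0.000522) or siCTRL KL001 Dexa replicate 1 (−0.13, 0.0307) and with length and GC trends removed (−0.10, 0.00829). With Dexa in siCop1 DMSO it passed with the compared groups alone (0.07, adjusted p = 0.0448) and with the trends removed (0.09, 0.0195). Cdkn1c gave −0.14 on average (SE 0.095, adjusted p = 0.227), with single-setting changes from −0.36 to 0.23.

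**Figure D3:**
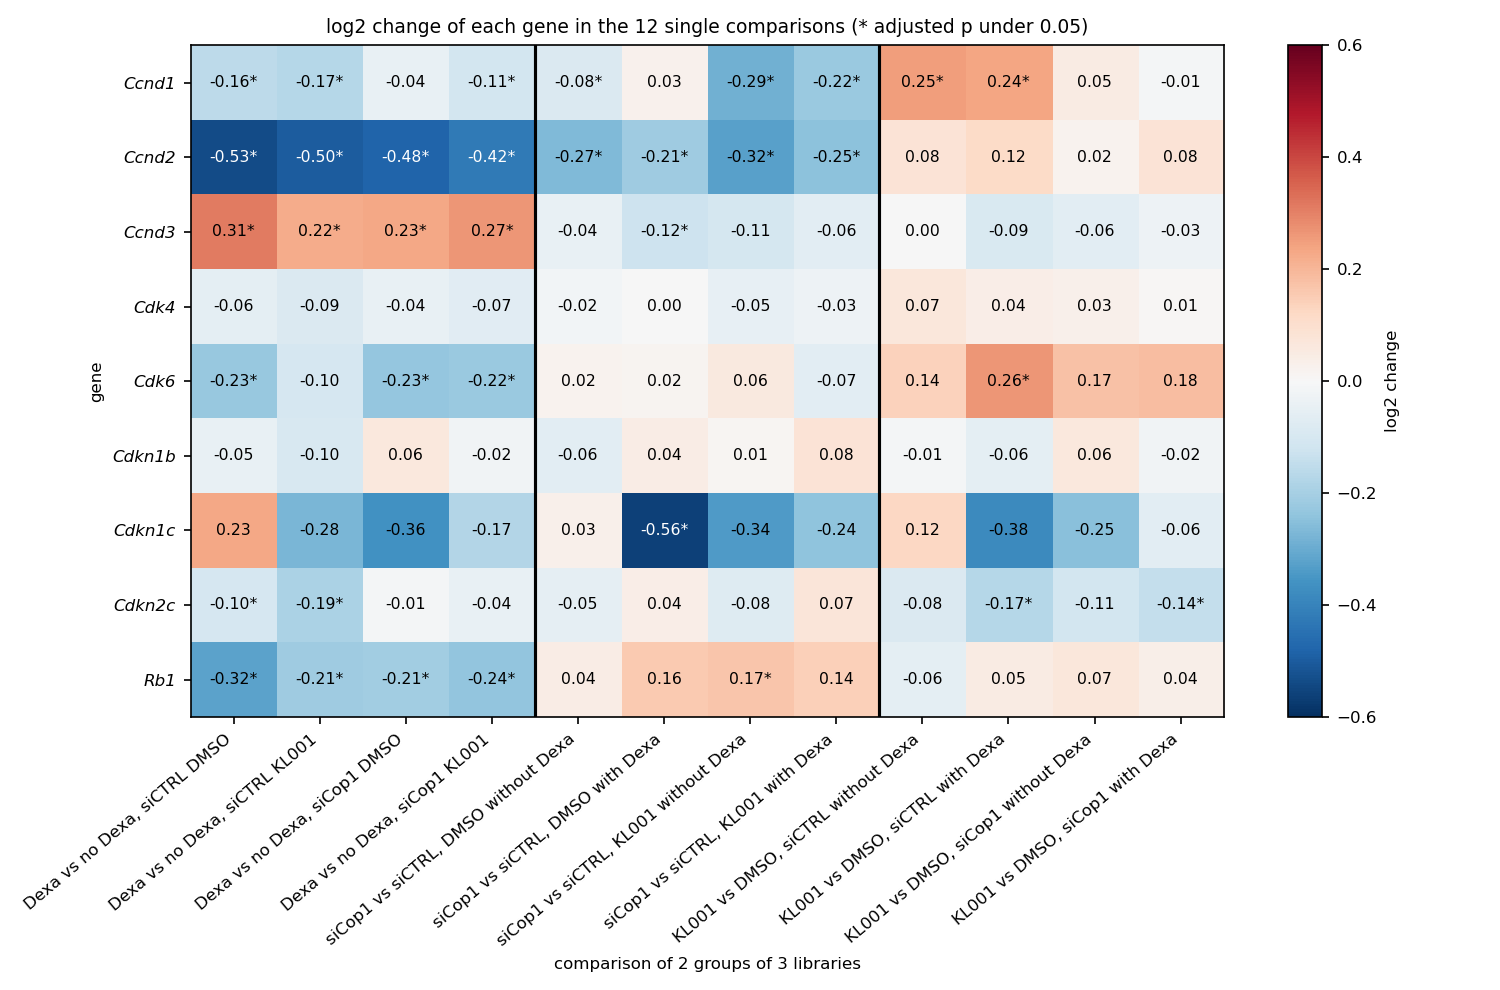
log2 change (colour and printed number) of each gene (rows) in the 12 comparisons of 2 groups of 3 libraries (columns: Dexa, siCop1, KL001); an asterisk marks an adjusted p under 0.05. The Ccnd2 row is negative in all 8 Dexa and siCop1 columns, the Ccnd3 row is positive in the 4 Dexa columns, and Ccnd1 is positive with KL001 in the siCTRL columns.

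Cop1 protein marks transcription factors such as Jun for destruction. With its knockdown Ccnd2 was lower in all 4 settings and Ccnd1 in 3, whereas the kinases, Cdkn1b and Cdkn2c did not pass the threshold in any setting as fitted. With length and GC trends removed, Cdkn1b passed in DMSO (−0.12, adjusted p = 0.00131, against −0.06 as fitted), and Cdkn2c in both settings with Dexa (0.11 and 0.13, adjusted p = 0.00376 and 0.0017, against 0.04 and 0.07). Cdkn1b also passed in KL001 with Dexa when the compared groups were fitted alone (0.09, adjusted p = 0.0276). On average 4 of 9 genes were lower (Ccnd1, Ccnd2, Ccnd3 and Cdkn1c) and 1 was higher (Rb1), beside 55.7% of all genes that changed. In cells without Dexa, 2 of 9 changed in DMSO (29.4% of all genes) and 3 in KL001 (32.7%), and in cells with Dexa 3 changed in DMSO (31.1%) and 2 in KL001 (30.1%), so the share of members called was near that of all genes. The libraries did not overlap for 3, 5, 5 and 6 of the 9 genes in that order, beside 42.7%, 39.5%, 43.5% and 45.3% of all genes.

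Ccnd2 changed by −0.27 (SE 0.064, adjusted p = 0.00316) in DMSO, −0.21 (0.0164) in DMSO with Dexa, −0.32 (0.000531) in KL001 and −0.25 (0.00618) in KL001 with Dexa. The library values given above put every siCop1 library below every siCTRL library of the same setting. The call in DMSO with Dexa was lost without replicate 2 of either group (adjusted p up to 0.0665). On average Ccnd2 fell by 16.6% (log2 change −0.26, SE 0.032, adjusted p = 7.21e-07). It was lowest where siCop1 and Dexa were combined, at 530 ± 9.73 CPM in DMSO and 560 ± 27.2 CPM in KL001 (SD, n = 3), against 889 ± 77.3 CPM in siCTRL DMSO. The siCop1-by-Dexa terms for Ccnd2, 0.05 and 0.08 (SE 0.091 each), did not pass the threshold (adjusted p = 0.957 and 0.930).

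Ccnd1 passed the threshold in 3 of 4 settings. With KL001 present its log2 change in siCop1 cells was −0.29 without Dexa (adjusted p = 2.99e-08) and −0.22 with Dexa (2.41e-06). In DMSO the changes were −0.08 without Dexa (adjusted p = 0.047) and 0.03 with Dexa (0.565). The first of these 2 was not past the threshold in 5 of 6 other analyses (adjusted p up to 0.168), nor without replicate 2 or 3 of siCTRL DMSO or of siCop1 DMSO (up to 0.224). The average change of Ccnd1 was −0.14 (SE 0.016, adjusted p = 1.06e-08). That of Oraov1, the gene on its other strand, was −0.11 (adjusted p = 0.00339), and its part in the Ccnd1 value was not tested. Ccnd3 changed by −0.08 on average (SE 0.021, adjusted p = 0.00131), and by −0.03 (0.161) once trends with transcript length and GC content were removed. In a single setting it passed the threshold in DMSO with Dexa (−0.12, adjusted p = 0.0271), and not without siCTRL DMSO Dexa replicate 1 or siCop1 DMSO Dexa replicate 2 or 3 (up to 0.228), with the compared groups alone (0.063) or with those trends removed (−0.06, 0.102).

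Rb1 was higher in siCop1 cells on average by 0.13 (SE 0.030, adjusted p = 0.000708), with 0.17 in KL001 without Dexa (adjusted p = 0.0279) and 0.04 to 0.16 in the other settings. With length and GC trends removed the average was 0.07 (adjusted p = 0.0448). The single call was lost without siCTRL KL001 replicate 1 or 2 or siCop1 KL001 replicate 2 or 3 (up to 0.126), and in 4 of 6 other analyses (up to 0.210). Cdkn1c was lower on average, with a log2 change of −0.28 (SE 0.095, adjusted p = 0.0145), a call that DESeq2, the unfiltered table and the removal of length and GC trends did not give (adjusted p up to 0.0711). In DMSO with Dexa its counts were 53, 46 and 42 in siCTRL and 29, 39 and 31 in siCop1 libraries, a log2 change of −0.56 (SE 0.189, adjusted p = 0.0237). That call was lost without siCTRL DMSO Dexa replicate 1 or 2 or siCop1 DMSO Dexa replicate 1 or 3 (up to 0.0838), and in DESeq2 and the unfiltered table (up to 0.0808). Cdk4 and Cdk6 averaged −0.02 (SE 0.018) and 0.01 (SE 0.038). Summed heart muscle markers (7 of 8 tested, none at 0 in all libraries) read 3.59 to 97.8 CPM in siCTRL and 2.66 to 5.13 CPM in siCop1 libraries. Summed fibroblast markers (10 of 10 tested) read 54978 to 58363 CPM in siCTRL DMSO and 48550 to 50060 CPM in siCop1 DMSO. In cells with Dexa the other lists did not all move the same way with siCop1. In DMSO with Dexa, simple or airway epithelium markers (6 of 6 tested) read 6.62 to 9.03 CPM in siCTRL and 15.1 to 16.3 CPM in siCop1 libraries. Macrophage and blood markers (3 of 6 tested) read 3.19 to 5.22 against 6.19 to 9.91 CPM there. Endothelium markers (3 of 4 tested) went the other way in that setting, at 1.28 to 1.75 CPM in siCTRL and 0.729 to 1.23 CPM in siCop1 libraries. The ranges of squamous epithelium markers (6 of 7 tested) overlapped between these groups. The part of these lists in the differences was not tested.

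KL001 changed few of these genes. Ccnd1 rose in siCTRL cells, Cdk6 rose and Cdkn2c fell on average, and no other gene of the set passed the threshold as fitted. These 3 of 9 genes changed on average, beside 24.1% of all genes. In siCTRL cells 1 of 9 changed without Dexa (6.73% of all genes) and 3 with Dexa (10.6%). In siCop1 cells edgeR called 0 of 9 without Dexa (4.09%), where 2 had an unadjusted p under 0.05 and DESeq2 also called 0, and 1 with Dexa (5.46%). The libraries did not overlap for 1, 4, 4 and 2 of the 9 genes in that order, beside 18.4%, 27.9%, 22.8% and 25.1% of all genes.

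Ccnd1 read 413, 429 and 420 CPM in siCTRL DMSO and 509, 504 and 490.1 CPM in siCTRL KL001. With Dexa the values were 361, 386 and 385 CPM in DMSO and 455, 425 and 455 CPM in KL001. The KL001 libraries lay above the DMSO libraries in both. In siCop1 cells the libraries read 407, 385 and 398 CPM in DMSO and 424, 401 and 408 CPM in KL001. With Dexa they read 388, 378 and 388 CPM in DMSO and 387, 376 and 379 CPM in KL001. In siCop1 cells the groups overlapped in both cases. The log2 changes with KL001 were 0.25 (SE 0.032, adjusted p = 2.82e-06) and 0.24 (SE 0.032, 7.64e-06) in siCTRL cells, rises of 19.2% and 17.9%. In siCop1 cells they were 0.05 (SE 0.032, adjusted p = 0.516) and −0.01 (SE 0.032, 0.901).

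The difference between these changes was tested directly. With Dexa the siCop1-by-KL001 term for Ccnd1 was −0.25 (SE 0.045, adjusted p = 0.0234), 1 of 10 genes called (0.0677% of 14772). Without Dexa it was −0.20 (SE 0.045, adjusted p = 0.122). In that comparison edgeR called 0 of all genes, with 982 at an unadjusted p under 0.05, and DESeq2 called 14 genes, Ccnd1 among them (adjusted p = 0.0188). It also passed with no filter (0.0334) and with length and GC trends removed (0.00892). The mean of both terms, a contrast added after the data were seen, was −0.23 (SE 0.032, adjusted p = 0.000509), with 66 genes called (0.447%). The term with Dexa kept its sign without each of the 12 libraries (−0.28 to −0.22), but its adjusted p stayed under 0.05 only without siCTRL DMSO Dexa replicate 2 or 3, siCTRL KL001 Dexa replicate 2 or siCop1 DMSO Dexa replicate 2, and reached 0.108 otherwise. Oraov1, which overlaps Ccnd1 on the other strand, changed with KL001 by 0.01 and −0.12 in siCTRL cells and by −0.03 and −0.01 in siCop1 cells, none past the threshold.

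**Figure D4:**
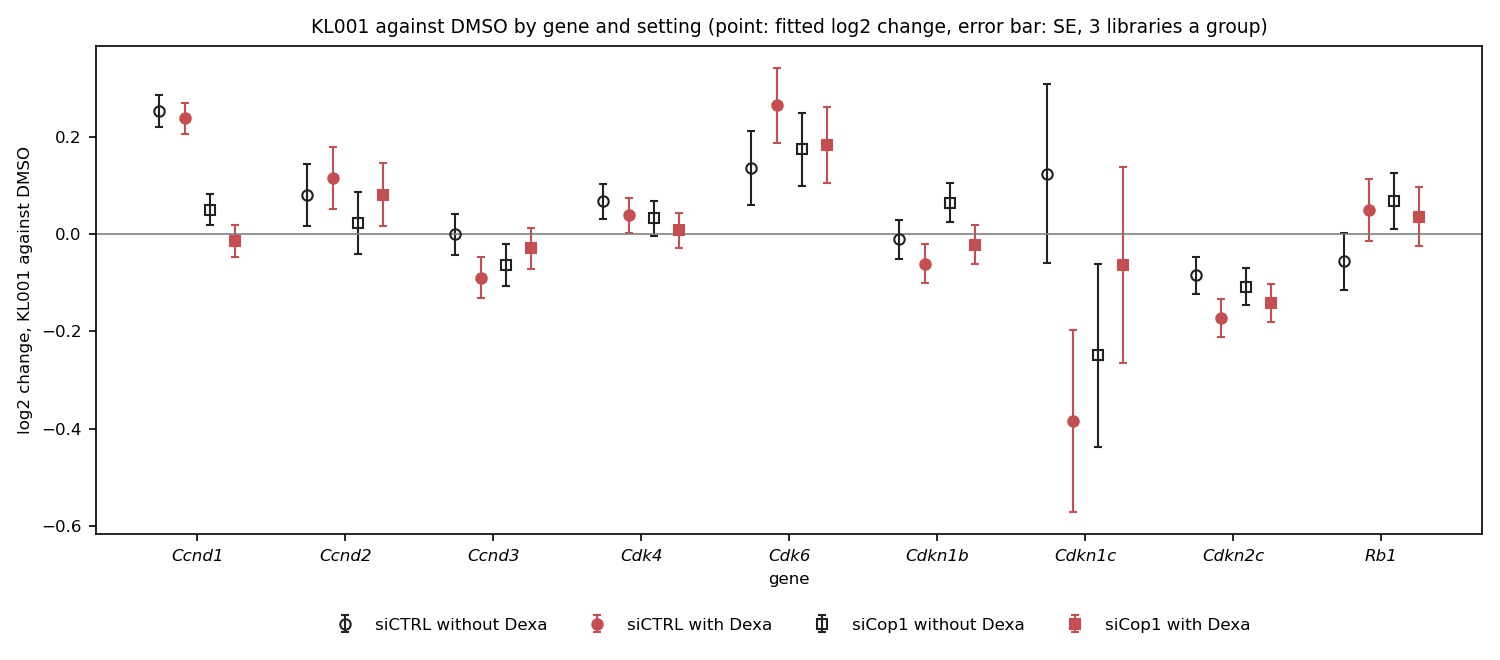
Fitted log2 change with KL001 against DMSO (y axis) of each gene (x axis) in 4 settings; points are estimates from groups of 3 libraries and error bars are SE, circles siCTRL and squares siCop1, filled with Dexa. For Ccnd1 the siCTRL points sit at 0.25 and 0.24 and the siCop1 points at 0.05 and −0.01, while the 4 points of Cdk6 lie between 0.14 and 0.26 and those of Cdkn2c between −0.17 and −0.08.

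Cdk6 gave positive changes with KL001 in all 4 settings, 0.14 and 0.26 in siCTRL and 0.17 and 0.18 in siCop1 cells, with an average of 0.19 (SE 0.038, adjusted p = 0.000733). Of the 4 settings as fitted, siCTRL with Dexa passed the threshold (adjusted p = 0.0306). Both siCop1 settings passed with no filter and with the compared groups alone (adjusted p up to 0.0132). In siCTRL with Dexa the libraries read 52.7, 54.0 and 52.1 CPM in DMSO and 68.0, 62.9 and 59.7 CPM in KL001. The call in siCTRL with Dexa was lost without any 1 library other than siCTRL KL001 Dexa replicate 3 (up to 0.140). It was also lost with length and GC trends removed (0.18, 0.0759). Cdkn2c, the INK4 inhibitor, fell by 8.42% on average (log2 change −0.13, SE 0.019, adjusted p = 8.88e-06). It changed by −0.17 in siCTRL with Dexa (71.3 ± 2.47 to 63.2 ± 0.690 CPM, SD, n = 3, adjusted p = 0.00354) and by −0.14 in siCop1 with Dexa (73.3 ± 1.91 to 66.4 ± 0.564 CPM, adjusted p = 0.0249). The second call was lost without siCop1 DMSO Dexa replicate 1 or any library of siCop1 KL001 Dexa (up to 0.154), and with no filter (0.0598). Ccnd2 averaged 0.08 (SE 0.032, adjusted p = 0.0997, but 0.000145 with no filter) and Ccnd3 −0.05 (SE 0.021, adjusted p = 0.120). Cdk4, whose promoter window held the 4 E-boxes shown above, averaged 0.04 (SE 0.018, adjusted p = 0.143). It passed with length and GC trends removed (0.05, adjusted p = 0.00274) and without siCTRL DMSO Dexa replicate 1 (0.05, 0.0302). In siCTRL cells with Dexa, Cdkn1b passed with the trends removed (−0.10, adjusted p = 0.0288, against −0.06 as fitted) and Ccnd2 with no filter (0.12, 0.014). Summed fibroblast markers read 54978 to 58363 CPM in siCTRL DMSO and 48005 to 52615 CPM in siCTRL KL001, and 48550 to 50060 against 42235 to 43681 CPM in the siCop1 groups without Dexa. Their part in these differences was not tested.

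In the other 4 interactions edgeR and DESeq2 called 0 of the 9 genes. Of all genes, edgeR called 0.670% and 0.562% for siCop1 by Dexa in DMSO and in KL001. For KL001 by Dexa it called 0.00% in siCTRL and 0.0677% in siCop1 cells. The shares of all genes at an unadjusted p under 0.05 are not given here. At that looser threshold stood 2 of 9 for siCop1 by Dexa in DMSO (Ccnd1 and Cdkn1c) and 1 of 9 in KL001 (Cdkn2c). For KL001 by Dexa it was 0 of 9 in either siRNA. These genes were singled out after their values were seen.

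The wider G1/S list, the genes that act beside this set at the same gate, split in both directions. With Dexa on average 13 of 31 rose and 10 fell (22.2% and 24.9% of all genes), with a median log2 change of 0.00020 beside −0.0019 over all genes. Cdkn1a, the Cip/Kip inhibitor best known as a p53 target, rose from 70.9 ± 1.68 to 168 ± 2.27 CPM in siCTRL DMSO (SD, n = 3) and by 1.16 on average (SE 0.020). Ccne2, an E-type cyclin, rose by 0.40, Mnat1, an assembly factor of the Cdk-activating kinase, by 0.39, the repressor E2f6 by 0.37, Fbxo31, an F-box protein that targets Ccnd1 protein, by 0.30, and Tfdp2, an E2F partner, by 0.26. The INK4 inhibitor Cdkn2b fell from 137 ± 7.03 to 95.7 ± 1.28 CPM in siCTRL DMSO, with an average log2 change of −0.53 (SE 0.019).

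In siCop1 cells 10 of the 31 genes rose and 12 fell on average (26.2% and 29.4% of all genes). Cdkn1a had a log2 change of −0.52 (SE 0.020), from 70.9 ± 1.68 CPM in siCTRL DMSO to 50.4 ± 1.49 CPM in siCop1 DMSO (SD, n = 3), and Fbxo31 one of −0.25. The growth regulator Myc rose by 0.32, from 53.1 ± 1.20 to 68.1 ± 0.594 CPM, and E2f2, at 1.52 to 2.91 CPM, by 0.31. In DMSO, E2f2 passed the threshold without and with Dexa (0.42 and 0.50, adjusted p = 0.0456 and 0.0231). Under KL001 it did not (0.11 and 0.19, adjusted p = 0.634 and 0.420). With KL001 8 of 31 rose and 4 fell (11.8% and 12.4%), and none moved by 0.25 or more.

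E2F-regulated genes, the next step after Rb1, were called in 1 direction with KL001. On average 22 of 28 E2F-regulated S phase genes rose and 0 fell (11.8% and 12.4% of all genes), with a median log2 change of 0.11 beside −2.9e-05 over all genes, and none of the 28 had a negative change in edgeR. Changes ranged from 0.0043 to 0.16. By setting, 14 of 28 rose in siCTRL without Dexa and 19 with Dexa (medians 0.17 and 0.19), beside 3.22% and 4.98% of all genes. In siCop1 cells 0 of 28 were called in either setting (medians 0.0019 and 0.04), beside 4.09% and 5.46% of all genes. There 2 and 4 had an unadjusted p under 0.05, and DESeq2 called 0. The siCop1-by-KL001 terms had medians of −0.16 and −0.13. For these terms edgeR called 0 of 28, beside 0.00% and 0.0677% of all genes, and DESeq2 1 and 0. At an unadjusted p under 0.05 stood 17 and 11. All genes at that unadjusted p are counted only for the term without Dexa, above. A difference between siRNAs was therefore not established gene by gene. With Dexa 3 rose and 10 fell on average (22.2% and 24.9% of all genes), and with siCop1 7 rose, close to the share of all genes, and 13 fell (26.2% and 29.4%). The siCop1 counts differed by compound. In DMSO 6 rose and 2 fell without Dexa (12.8% and 16.6% of all genes), and 8 and 4 with Dexa (14.4% and 16.7%). In KL001 1 rose and 12 fell without Dexa (14.5% and 18.2%), and 2 and 10 with Dexa (13.7% and 16.3%).

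Of 20 mitosis genes, 8 rose and 0 fell with KL001 on average (median 0.06, beside 11.8% and 12.4% of all genes), with 0 falling in DESeq2 as well. In siCTRL cells 1 rose without Dexa and 4 with Dexa (medians 0.098 and 0.12), beside 3.22% and 4.98% of all genes. In siCop1 cells 0 were called in either setting (medians −0.015 and 0.037), beside 4.09% and 5.46% of all genes. With Dexa 2 rose and 5 fell (22.2% and 24.9% of all genes), and with siCop1 4 rose and 10 fell (26.2% and 29.4%), with medians of −0.04 and −0.05. By setting, siCop1 gave 2 higher and 1 lower in DMSO without Dexa, and 3 and 3 with Dexa. In KL001 it gave 1 higher and 7 lower without Dexa, and 0 and 9 with Dexa. The shares of all genes in these settings are those given above. These counts describe the lists, which were not tested as sets.

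**Figure D5:**
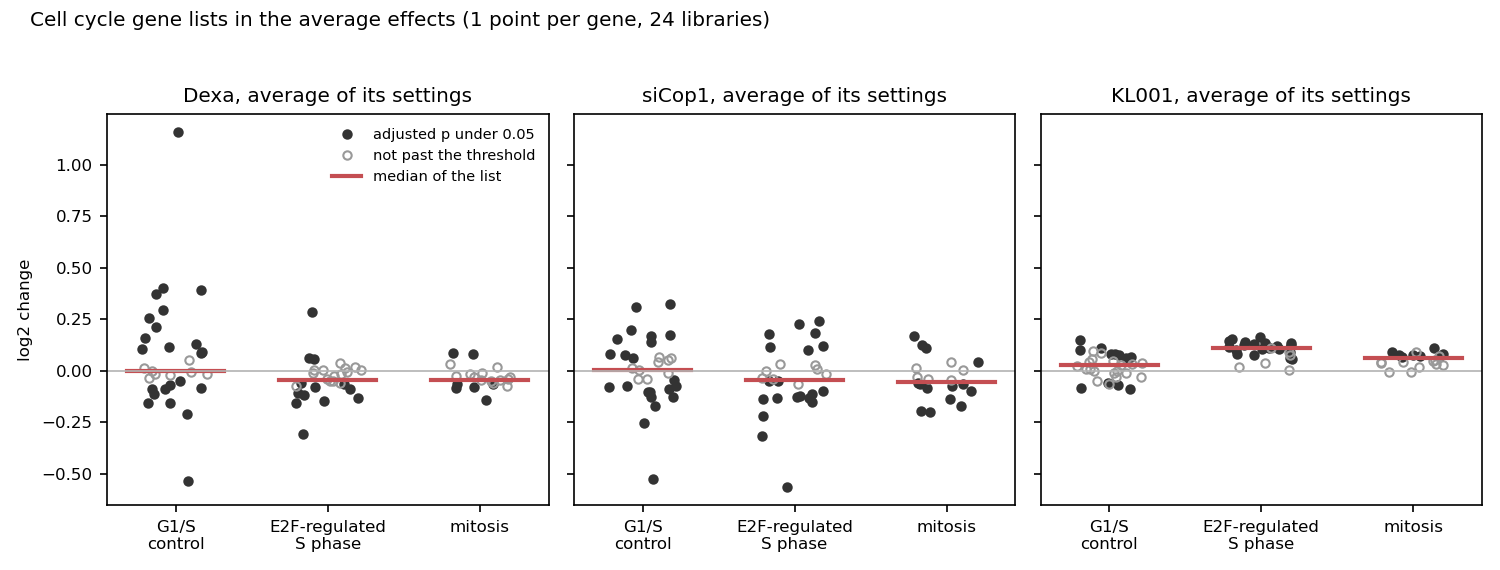
log2 change on average over 4 settings (y axis) of each gene of 3 lists (x axis: 31 G1/S control, 28 E2F-regulated S phase and 20 mitosis genes) for Dexa, siCop1 and KL001; filled points have an adjusted p under 0.05 and the line is the list's median. The S phase list sits above 0 with KL001 (median 0.11) and Cdkn1a stands at 1.16 with Dexa.

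The genes whose 8 group means followed each cyclin most closely were taken from 11650 genes by Pearson r, as a description only, since the means share their libraries. For Ccnd1 they were Kif22, a mitotic kinesin (r = 0.985), Actl6a, a subunit of chromatin remodelling complexes (0.966), and Aurka, a mitotic kinase (0.964). The group means of Actl6a spanned 59.7 to 72.9 CPM and those of Aurka 42.8 to 50.8 CPM. For Ccnd2 they included Gnai3, a G protein subunit, and Trim59, each with r = 0.995. For Ccnd3 they were Usp16 (r = 0.996), Dhrs3 (0.994) and Usp2 (0.993). Usp2, a ubiquitin protease, ranged from 8.04 to 36.0 CPM, a much wider span than the 158 to 211 CPM of Ccnd3.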

How the data were processed

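RNA from 24 libraries of mouse embryonic fibroblasts, 3 in each of 8 groups, was prepared with a strand-keeping mRNA kit and sequenced as single reads, per the labels' protocols. The deposited raw count per gene was made by the authors, whose processing notes name bcl2fastq 1.8.4, STAR 2.4.5a, featureCounts from Subread 1.4.6-p3, DESeq2, Picard 1.126 and GRCm38/mm10. The strand setting of the counting is not given in the sources used here. A second deposited table holds a normalized signal per gene that equals the counts divided by size factors (0.862 to 1.12) for 100% of values within 0.011; it was used only for that check.

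Counts were fitted with edgeR 4.0.16 (R 4.3.3, limma 3.58.1): TMM scaling, filterByExpr (minimum count 10, minimum total 15), a group mean for each of the 8 groups over all 24 libraries, and the robust quasi-likelihood test. Benjamini-Hochberg adjustment ran over 14772 genes, with a threshold of 0.05, and every adjusted p is from this fit unless another tool is named. There were 12 single comparisons, 3 averages over 4 settings each and 6 interactions. Levels are CPM on the TMM scale, and levels per kb use the longest coding transcript of GENCODE vM21. The fit was tried on simulated counts only for the comparison of siCop1 with siCTRL in DMSO without Dexa. The averages and interactions were not tried in that way. Library totals of 21409988 to 27875023 counts set the depth, and the common biological coefficient of variation was 3.71%.

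Alternatives were the replicate number as a block, RLE scaling, no filter, the compared groups alone, DESeq2 1.42.0 and leaving out each library. Removal of length and GC trends and the mean of the siCop1-by-KL001 terms were added after the data were seen. The 9 genes and the lists of cell cycle genes and markers were chosen with earlier results of these data known. All 9 genes are named whatever their values. G1/S genes are named where an average effect was called with a log2 change of at least 0.25 in size, and the 3 genes most like each cyclin by Pearson r, among genes with a mean of at least 1 CPM and without provisional symbols. Of these, 1 gene is not reported here.

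Replicate numbers come from the labels, which do not say that a number marks a shared culture or day. Same-numbered libraries deviated together with every r over 0.1 in 2 of 12 comparisons (KL001 in siCTRL with Dexa, and Dexa in siCTRL KL001). The replicate block changed no count of the 9 genes in those 2.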

Additional observations from a re-analysis of the deposited data

Results flagged for a closer look

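The change of Ccnd1 with KL001 differed between siRNAs in the presence of Dexa, by a test of the difference itself. The siCop1-by-KL001 term was −0.25 on the log2 scale (SE 0.045, adjusted p = 0.0234 in edgeR), from a change of 0.24 in siCTRL and −0.01 in siCop1 cells. Across the 6 other analyses the term lay between −0.26 and −0.25 and its adjusted p between 0.000502 and 0.0380. Without 1 library at a time the term stayed between −0.28 and −0.22, and its adjusted p passed 0.05 in 8 of 12 cases.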

How the results depend on the processing

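All calls of the 9 genes in the average effects were kept without each of the 24 libraries. Over single results, 708 of the left-out values kept direction and side of the threshold, 57 lost the call, 4 gained one and 5 changed sign; the other analyses gave 370, 25, 22 and 3. The count of genes called with KL001 in siCop1 cells went from 1 to 2 with Dexa when only the compared groups were fitted, and from 0 to 1 without Dexa there and with no filter. The siCop1 count in DMSO without Dexa went from 2 to 1 with DESeq2, no filter, RLE scaling and the compared groups alone. Leaving out 1 library gave 2 to 4 genes for Dexa in siCop1 DMSO, 3 to 5 for Dexa in siCop1 KL001, 0 to 1 for KL001 in siCop1 with Dexa, 1 to 3 for siCop1 in DMSO with Dexa and 1 to 2 for siCop1 in DMSO without it. The average siCop1 change of Cdkn2c, −0.0045, changed sign with DESeq2 (0.0019), RLE scaling (0.0022) and removal of length and GC trends (0.068, adjusted p = 0.000230), and ran from −0.0117 to 0.0041 without 1 library. That of Ccnd1 in DMSO with Dexa ran from −0.0136, without siCTRL DMSO Dexa replicate 1, to 0.0393. The cause was not tested.

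With the replicate number as a block, Cdkn2c with Dexa in siCTRL DMSO lost its call (−0.10, adjusted p = 0.0509), and no other call of the 9 genes changed. Over 84 same-numbered pairs, 19 correlated above 0.1 (median 0.012). Over all genes, KL001 in siCTRL without Dexa called 994 genes, 225 with the compared groups alone and 1583 with length and GC trends removed. In siCop1 cells 604 without Dexa became 950 and 958, and 807 with Dexa became 1435 and 1211, in the same order. The interactions moved most, and in siCop1 by KL001 with Dexa 10 genes became 25 with DESeq2, 62 with trends removed, 59 with no filter and 5 with the block. Without Dexa 0 became 14, 27 and 61 in the first 3 of these. For KL001 by Dexa, 0 in siCTRL became 2, 7 and 133 likewise, and 10 in siCop1 became 23 with trends removed, 43 with no filter, 24 with the compared groups alone and 5 with the block or RLE scaling. For siCop1 by Dexa, 99 in DMSO became 196 with trends removed and 230 with no filter, and 83 in KL001 became 169 and 156, or 52 with the compared groups alone. Cdkn1c, at 23 to 53 counts, is the gene whose depth limits its comparisons.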
